A study of Mus musculus with 12 samples.

Results

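The genes described here are secreted antagonists of Wnt signalling (Sfrp1, Sfrp2, Frzb, Dkk1 and Dkk2) and genes that respond to or carry out the Wnt signal in the nucleus (Axin2, Lef1 and Tcf7). They were chosen by symbol through the platform's probe annotation. Of the 8 symbols, 7 had a probe set that the annotation assigns to a single gene, out of 12393 genes in all. Tcf7 was assigned none there and was not analysed here. The 7 genes had 12 probe sets, of which 7 passed a filter on dim signal (above the array's median on at least 2 of 12 arrays). These represented 6 genes, which were tested. Lef1 did not pass.

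The cells were muscle progenitors of ICR mouse embryos that carry Myf5Cre and RosaYFP, sorted for yellow fluorescence from dissected head or trunk. The label is switched on by Cre from the muscle determination gene Myf5 and is inherited, so it marks cells that have expressed Myf5 and their descendants in both regions. There were 6 groups with 2 arrays each: head at E9.5, then E10.5, then E11.5 (E gives the embryonic day), and trunk at the same stages. All groups share the strain and both alleles.

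Wnt ligands bind Frizzled receptors with the co-receptors Lrp5 and Lrp6, which stabilises beta-catenin and lets it act with LEF and TCF factors on target genes. The Sfrp proteins and Frzb bind Wnt ligands outside the cell, and the Dkk proteins bind the Lrp co-receptors. Axin2 is part of the complex that degrades beta-catenin and is itself a target gene, so it acts as negative feedback. Wnt signals from the neural tube and surface ectoderm are known to promote myogenesis in the somites of the trunk, and Wnt antagonists secreted around the head mesoderm are known from chick embryos to favour head muscle formation.

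Transcript of Myf5, the gene whose Cre switches on the sorted label, was present on every array. Myf5 had a signal between 525 and 2294 intensity units on the 12 arrays, against an array median of 108.6 to 110.4. The myogenic factors Myod1 and Myog were highest at E11.5, with 2156 and 2337 units of Myod1 in head and 1198 and 879 in trunk. Transcripts of other cell types were present too. Over the mean of the 3 stages all 10 tested neuron markers, 9 of 9 endothelial markers and 8 of 9 epithelial markers were higher in head. So were 4 of 4 tested macrophage and leukocyte markers and 1 of 5 erythroid markers. Lower in head were 4 of 6 tested cartilage and sclerotome, 4 of 9 connective tissue and 2 of 5 neural progenitor markers. Of 8 tested muscle progenitor markers 2 were higher and 2 lower. Among all 7722 genes tested, 6.85% were called higher in head and 3.61% lower. In trunk 9, 5 and 7 of 10 endothelial genes lay below the array median on both arrays (E9.5, E10.5 and E11.5). In head it was 2, 1 and 2. Of 8 cartilage and sclerotome genes it was 2 in each trunk group and 3, 4 and 4 in head. Some listed genes can come through the filter only by the region where they are high. These counts are therefore descriptions and no support for a direction. In a bulk sample, fewer cells of a type and less RNA per cell cannot be told apart. The E10.5 replicate 1 arrays of both regions stood apart by the X-inactivation transcript Xist, at 163 and 82.6 units, against 3790 to 8801 on the other 10 arrays.

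Promoter sequence from RefSeq (GRCm38.p6) was matched by symbol for 6 of the 7 genes, as 9 windows of the 250 bases before an annotated start. Dkk2 is shown because it was the only member whose signal passed a test, and its relative Dkk1 because its window was the only one of the 9 that held the letters CTTTGAA or CTTTGAT on either strand, a core of the site bound by LEF and TCF factors. These letters are in capitals. They occurred in 7.48% of the 32851 windows of this length in the table, and a match is a description of the sequence only. The Dkk2 gene lies at chr3:132085266-132180304, and the 224 bases of its window that precede the gene's annotated span are shown, at chr3:132085042-132085265 on the plus strand. The Dkk1 gene lies at chr19:30545876-30549496, and its window at chr19:30549497-30549746 on the minus strand. In Dkk1 the match began 117 bases before the start.
Dkk2: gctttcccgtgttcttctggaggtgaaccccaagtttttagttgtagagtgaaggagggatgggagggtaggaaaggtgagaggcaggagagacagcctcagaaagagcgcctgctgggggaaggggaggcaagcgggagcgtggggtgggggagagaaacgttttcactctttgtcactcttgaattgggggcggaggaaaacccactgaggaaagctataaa
Dkk1: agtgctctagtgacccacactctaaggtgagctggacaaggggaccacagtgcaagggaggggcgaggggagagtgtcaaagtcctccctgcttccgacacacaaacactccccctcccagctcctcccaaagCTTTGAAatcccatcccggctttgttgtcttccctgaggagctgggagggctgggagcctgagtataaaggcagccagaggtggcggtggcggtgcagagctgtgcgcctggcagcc

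Dkk2, which binds Lrp co-receptors and in frog embryos can act as an agonist as well as an antagonist, rose in both regions from E9.5 to E10.5, was above its E9.5 signal in trunk at E11.5, and was lower in head than in trunk at E11.5. In head its signal was 79.3 and 123 units at E9.5, 414 and 288 at E10.5, and 226 and 236 at E11.5. In trunk it was 67.6 and 142 units at E9.5, 448 and 369 at E10.5, and 894 and 725 at E11.5. The E9.5 arrays of the regions overlapped, the E10.5 arrays overlapped, and at E11.5 both head arrays lay below both trunk arrays. In order of mean log2 signal the groups were trunk E11.5, trunk E10.5, head E10.5, head E11.5, head E9.5 and trunk E9.5. Only trunk and head at E10.5, and head and trunk at E9.5, overlapped among neighbours in that order.

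At E11.5 Dkk2 was 3.48-fold lower in head (log2 −1.80 ± 0.34, SE from limma, adjusted p = 0.0207). In trunk it rose by E11.5 to at least 6.49-fold its E9.5 signal (log2 3.04 ± 0.34, adjusted p = 0.000191), and it passed in 22 of 22 alternatives, each single array left out among them (highest adjusted p 0.00297). In the first day it rose at least 3.28-fold in trunk (log2 2.05 ± 0.34, adjusted p = 0.00436) and at least 2.96-fold in head (log2 1.80 ± 0.34, adjusted p = 0.0370). The head change from E9.5 to E11.5 was log2 1.23 ± 0.34 (adjusted p = 0.0665), and the second-day changes were log2 −0.58 in head (adjusted p = 0.429) and 0.99 in trunk (adjusted p = 0.506). Over the mean of the 3 stages head minus trunk was log2 −0.67 ± 0.20 (adjusted p = 0.0515). Head minus trunk in the E11.5 minus E9.5 change was log2 −1.81 ± 0.49 and did not pass (adjusted p = 0.107, with a 95% interval of −2.88 to −0.75 on the log2 scale), so a larger rise in trunk than in head was not shown. It passed without trunk E9.5 replicate 2 (adjusted p = 0.0240) and with signals floored at the array median (0.0351).

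With 2 arrays a group, these calls depend on single arrays, except that of trunk E11.5 minus E9.5. Among the values that did not pass, the mean difference passed without head E9.5 replicate 2 or trunk E9.5 replicate 1 (adjusted p = 0.0401 and 0.0097), and head E11.5 minus E9.5 passed without trunk E9.5 replicate 1 or 2 (adjusted p = 0.0276 and 0.0286). The E11.5 difference kept its size but not its call without head E11.5 replicate 1 or 2 or trunk E11.5 replicate 1 or 2 (adjusted p = 0.0955, 0.104, 0.156 and 0.0853), and the first-day rise in trunk did not pass without trunk E10.5 replicate 1 (adjusted p = 0.0665) or without both E10.5 replicate 1 arrays (adjusted p = 0.0903). The first-day rise in head did not pass without head E9.5 replicate 1 (adjusted p = 0.255), head E10.5 replicate 1 (0.245), trunk E10.5 replicate 1 (0.0753) or 2 (0.0743), trunk E11.5 replicate 1 (0.0534) or 2 (0.0540), or both E10.5 replicate 1 arrays (0.367).

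In trunk, and between the regions at E11.5, connective tissue markers moved with Dkk2. The summed signal of the 10 listed genes was 10714 and 9192 units in head at E9.5, 15394 and 9232 at E10.5, and 12555 and 12547 at E11.5. In trunk it was 9359 and 11244 units at E9.5, 22750 and 17655 at E10.5, and 27497 and 24132 at E11.5. In head from E9.5 to E10.5, where Dkk2 rose, 0 of 9 tested members passed in limma, beside 0.958% of all genes. Of the 9, 3 had an unadjusted p under 0.05, and the median was log2 0.24. The sum of head E10.5 replicate 2 lay within the E9.5 sums. Between the regions at E10.5 both head sums lay below both trunk sums. There 2 of 9 tested members were lower in head and 0 higher (median log2 −0.70), beside 2.07% of all genes lower. Dkk2 overlapped between the regions at that stage, with head minus trunk at log2 −0.24 (adjusted p = 0.702 in limma). At E11.5, 5 of 9 tested members were lower in head and none higher (median log2 −1.40), beside 1.36% of all genes lower. In trunk 6 of 9 rose between E9.5 and E11.5 and none fell, beside 8.73% of all genes that rose. Also lower in head at E11.5 were 3 of 5 tested neural progenitor markers (median log2 −1.49) and 3 of 6 cartilage and sclerotome markers (−1.30). None of either list was higher. Other lists went the other way, with 2 of 9 tested endothelial, 1 of 10 neuron and 1 of 8 muscle progenitor markers higher in head. Their medians were log2 1.12, 0.90 and 0.87, and 0.712% of all genes were higher. No macrophage and leukocyte, epithelial or erythroid marker passed (medians 1.25, 0.86 and 0.04). The summed muscle progenitor signal at E11.5 was 10260 to 10410 units in head and 4897 to 4960 in trunk. In each group at most 2 of the 10 connective tissue genes lay below the array median on both arrays. In trunk 8 of 10 neuron markers rose too from E9.5 to E11.5 (8.73% of all genes), and 6 of 9 epithelial markers fell (4.71%). The limit that the filter sets on marker counts, given above, holds for these counts too. The part of these cells in the Dkk2 result was not tested.

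**Figure D1:**
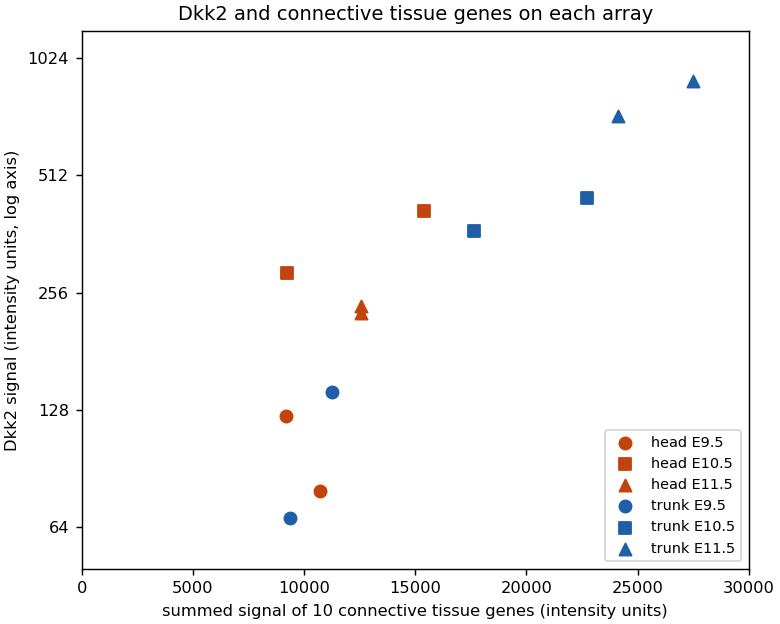
Dkk2 signal (vertical, intensity units, log axis) against the summed signal of 10 connective tissue genes (horizontal, intensity units), 1 point per array, coloured by region and shaped by stage. The trunk E11.5 arrays are highest on both axes, with 894 and 725 units of Dkk2, and the 4 arrays of E9.5 are lowest for Dkk2.

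Dkk1, the first described antagonist of its family and required for head formation in the mouse, was dim. Its signal in head was 144 and 112 units at E9.5, 97.4 and 80.7 at E10.5, and 75.1 and 44.9 at E11.5. In trunk it was 88.8 and 104 units at E9.5, 45.5 and 75.3 at E10.5, and 61.9 and 71.5 at E11.5. Only the 2 head arrays at E9.5 lay above the array median, which is how the gene came through the filter. No comparison passed. The head E11.5 minus E9.5 difference was log2 −1.13, and head minus trunk at E9.5 was log2 0.40. In both, the higher side is head at E9.5, the group that let the gene through the filter. They are therefore given as descriptions, without the test's values, and are no support for a direction.

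**Figure D2:**
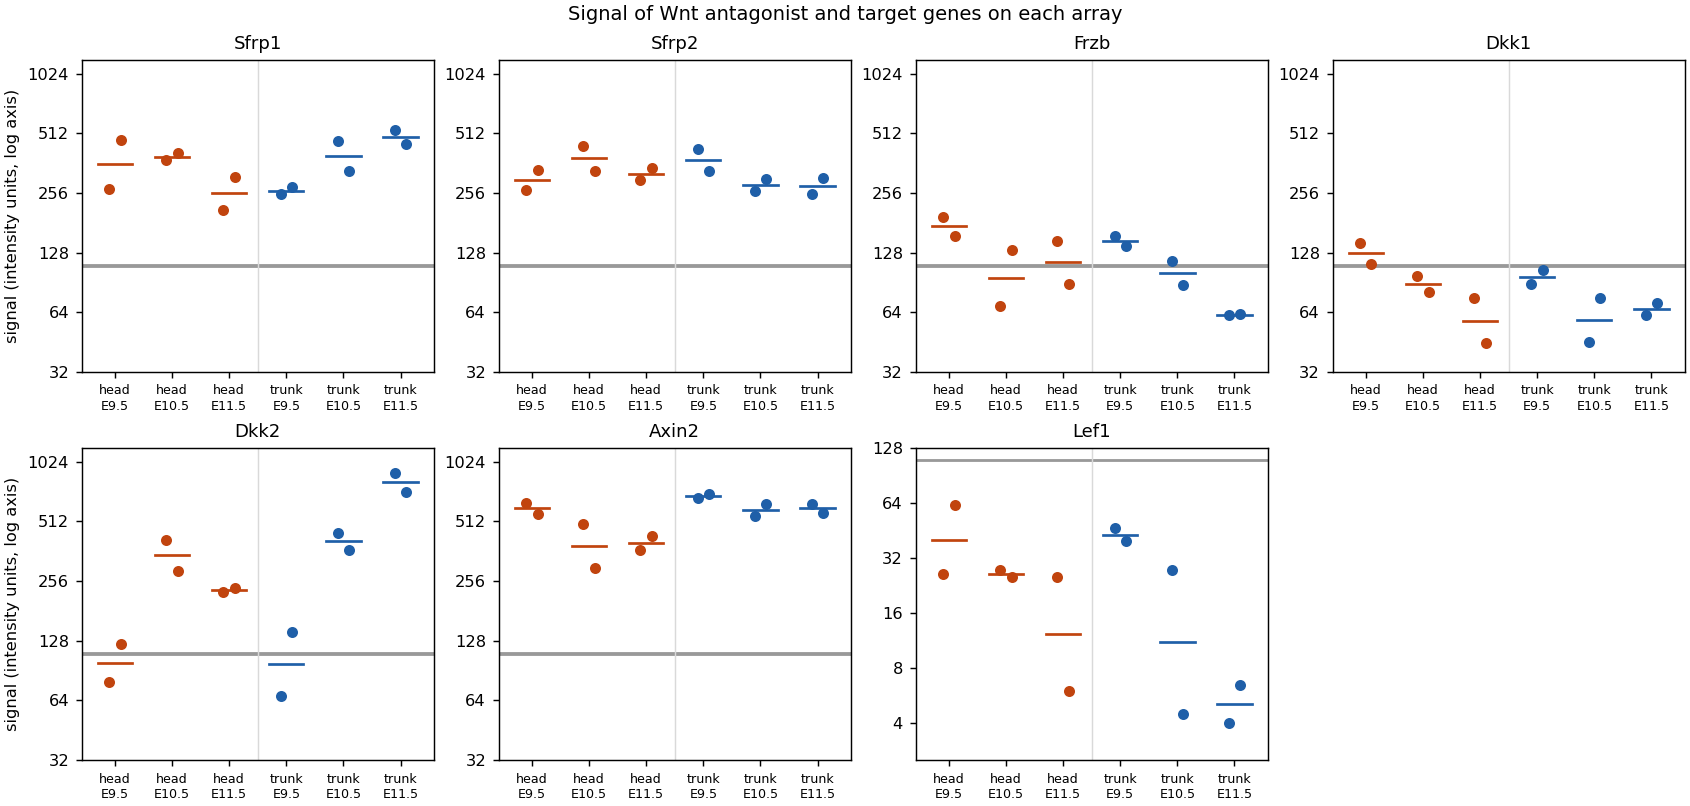
Signal of the 7 genes on each of the 12 arrays (vertical, intensity units, log axis; Lef1 has a lower range), with head groups left of trunk groups and stages in order. Points are arrays, bars are group means of log2 signal, and the grey band is the range of array medians (108.6 to 110.4). Dkk2 spans 67.6 to 894 units, Lef1 lies below the band on every array, and Sfrp1, Sfrp2 and Axin2 lie above it on every array.

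Sfrp1 and Sfrp2, secreted relatives of the Frizzled receptors, had signal above the array median on all 12 arrays and passed in no comparison. Sfrp1 had 269 and 476 units in head at E9.5, 375 and 405 at E10.5, and 210.3 and 309 at E11.5. In trunk Sfrp1 had 253 and 273 units at E9.5, 468 and 331 at E10.5, and 533 and 451 at E11.5. Both head arrays at E11.5 lay below both trunk arrays of that stage, by log2 −0.94 ± 0.29 (1.92-fold, adjusted p = 0.164).

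In trunk the Sfrp1 arrays of E11.5 lay above those of E9.5, with a difference of log2 0.90 ± 0.29 that missed the threshold (1.86-fold, adjusted p = 0.0640). It passed without head E9.5 replicate 1 or 2 (adjusted p = 0.0336 and 0.0345). In head the same difference was log2 −0.49 ± 0.29 (adjusted p = 0.433). The difference between the regions in this change was log2 −1.39 ± 0.41 (adjusted p = 0.151), and all neighbouring groups in the order of Sfrp1 means overlapped. Sfrp1 had 4 probe sets. A dimmer probe set that also passed the filter, with 47.5 to 281 units, gave log2 1.45 ± 0.53 for trunk E11.5 minus E9.5 and −1.71 ± 0.75 for the difference between the regions, the same signs (adjusted p = 0.167 and 0.564, with every probe set tested on its own and no filter). The remaining Sfrp1 probe sets lay below the array median on every array, at 41.3 units or less.

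Sfrp2 had 265 and 333 units in head at E9.5, 444 and 332 at E10.5, and 297 and 344 at E11.5. In trunk Sfrp2 had 429 and 329 units at E9.5, 262 and 301 at E10.5, and 253 and 306 at E11.5. All neighbouring groups in the order of its means overlapped. Head minus trunk over the mean of the 3 stages was log2 0.11 ± 0.14 (adjusted p = 0.684), with a 95% interval of −0.19 to 0.40 on the log2 scale. The largest of its regional differences in the change between stages was log2 0.79 ± 0.33, from E9.5 to E10.5 (adjusted p = 0.380).

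Frzb, a Wnt-binding protein named for its sequence likeness to Frizzled and known in cartilage, lay near the array median. In head it had 193 and 156 units at E9.5, 69.0 and 132 at E10.5, and 147 and 89.2 at E11.5. In trunk Frzb had 156 and 138 units at E9.5, 116 and 87.7 at E10.5, and 61.7 and 62.8 at E11.5. The trunk arrays of E11.5 lay below those of E9.5 by log2 −1.23 ± 0.38, at least 1.34-fold (adjusted p = 0.0504). This value lay on the threshold and passed in 7 of 22 alternatives, among them without head E10.5 replicate 1 or 2 (adjusted p = 0.0282 and 0.0305) and without head E11.5 replicate 1 or 2 (0.0486 and 0.0456). At E11.5 head minus trunk was log2 0.88 ± 0.38 (adjusted p = 0.383). The other Frzb probe set lay at 23.8 units or less.

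Axin2, the feedback gene, had signal above the array median on all 12 arrays and passed in no comparison. In head it had 637 and 560.2 units at E9.5, 499 and 297 at E10.5, and 368 and 433 at E11.5. In trunk it had 669 and 708 units at E9.5, 546 and 626 at E10.5, and 628 and 565 at E11.5. At each stage both head arrays lay below both trunk arrays. The difference over the mean of the 3 stages was log2 −0.46 ± 0.14, or 1.38-fold lower in head, with an adjusted p of 0.0544. It was log2 −0.20 ± 0.24 at E9.5, −0.60 ± 0.24 at E10.5 and −0.58 ± 0.24 at E11.5 (adjusted p = 0.779, 0.156 and 0.359).

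The Axin2 mean difference passed without head E10.5 replicate 1 (log2 −0.59, adjusted p = 0.00982) and without both E10.5 replicate 1 arrays (log2 −0.62, adjusted p = 0.0244). In head Axin2 was also below its E9.5 level at E10.5 and at E11.5, by log2 −0.63 and −0.58 (adjusted p = 0.233 and 0.217), and in trunk the E11.5 minus E9.5 difference was −0.21 ± 0.24 (adjusted p = 0.645). The second Axin2 probe set lay below the array median on every array, at 28.3 units or less.

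Lef1, the nuclear partner of beta-catenin, lay below the array median on all 12 arrays, so its values carry no measured fold. It had 26.01 and 62.5 units in head at E9.5, 27.4 and 25.1 at E10.5, and 25.1 and 5.98 at E11.5. In trunk it had 46.9 and 39.5 units at E9.5, 27.5 and 4.47 at E10.5, and 3.99 and 6.45 at E11.5. The trunk E11.5 arrays lay below the trunk E9.5 arrays. With no filter this difference did not pass (adjusted p = 0.0702 by limma).

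**Figure D3:**
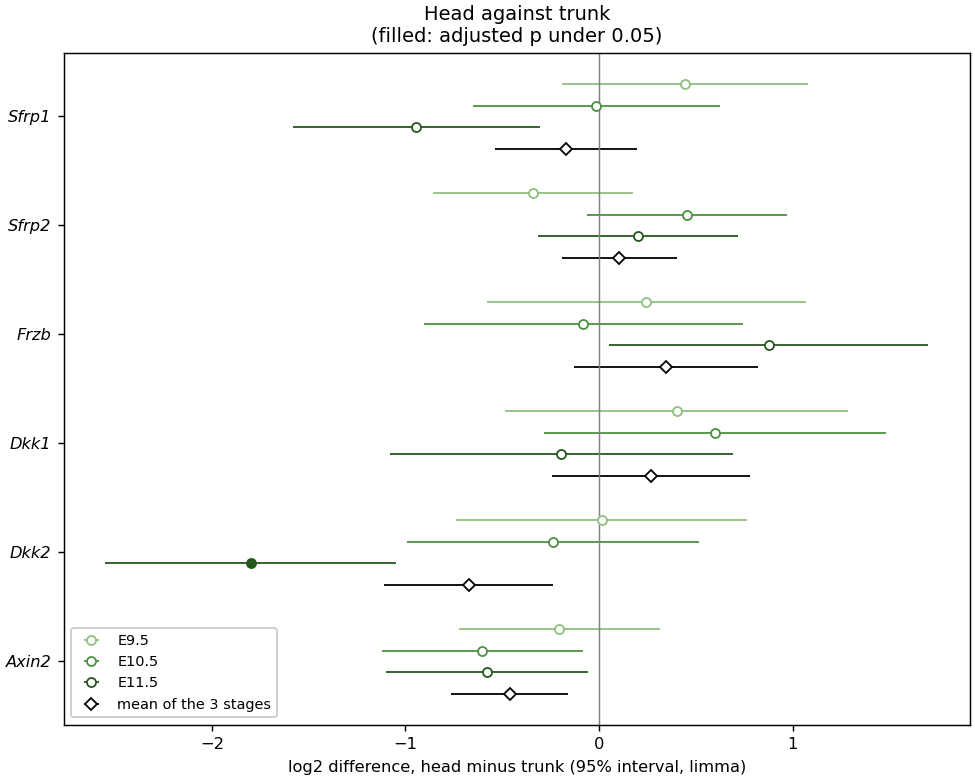
Log2 difference, head minus trunk, for the 6 tested genes (rows) at E9.5, E10.5, E11.5 and over the mean of the 3 stages. Points are limma estimates, bars are 95% intervals, and filled points have an adjusted p under 0.05. Only Dkk2 at E11.5, at −1.80, is filled.

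Counted over the 6 tested genes, none passed between head and trunk when the 3 stages were averaged (2 at an unadjusted p under 0.05, Dkk2 and Axin2), where limma called 10.5% of the 7722 genes tested. At E9.5 and at E10.5 none passed either (0 and 1 at an unadjusted p under 0.05), against 5.92% and 4.52% of all genes. At E11.5, 1 of 6 passed, Dkk2, against 2.07% of all genes. The median of the 6 log2 differences was −0.03 for the average of the stages and −0.39 at E11.5, beside −0.0009 and 0.02 over all genes tested. The counts and the median that involve E9.5 include Dkk1, which came through the filter by its head arrays of that stage.

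Between stages in head, 1 of 6 passed from E9.5 to E10.5 (0.958% of all genes), and none from E10.5 to E11.5 (0.984% of all genes; 0 at an unadjusted p under 0.05) or from E9.5 to E11.5 (4.78%; 3 at an unadjusted p under 0.05). In trunk 1 of 6 passed from E9.5 to E10.5 (7.2% of all genes) and 1 from E9.5 to E11.5 (13.4%), and none from E10.5 to E11.5 (0.0259%; 1 at an unadjusted p under 0.05). Each gene that passed was Dkk2. For the difference between the regions in a change, none passed in limma for the first day (0.389% of all genes), the second day (0%) or E9.5 to E11.5 (1.48%), with 1, 2 and 2 at an unadjusted p under 0.05. With 6 genes these counts rest on Dkk2 alone, and no difference from the backgrounds was tested. Dkk1 was 1 of the 3 genes at an unadjusted p under 0.05 in head from E9.5 to E11.5. It came through the filter by its head arrays at E9.5, so its place in that count is no support for a direction. Comparisons that have a stage or region in common share those arrays.

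**Figure D4:**
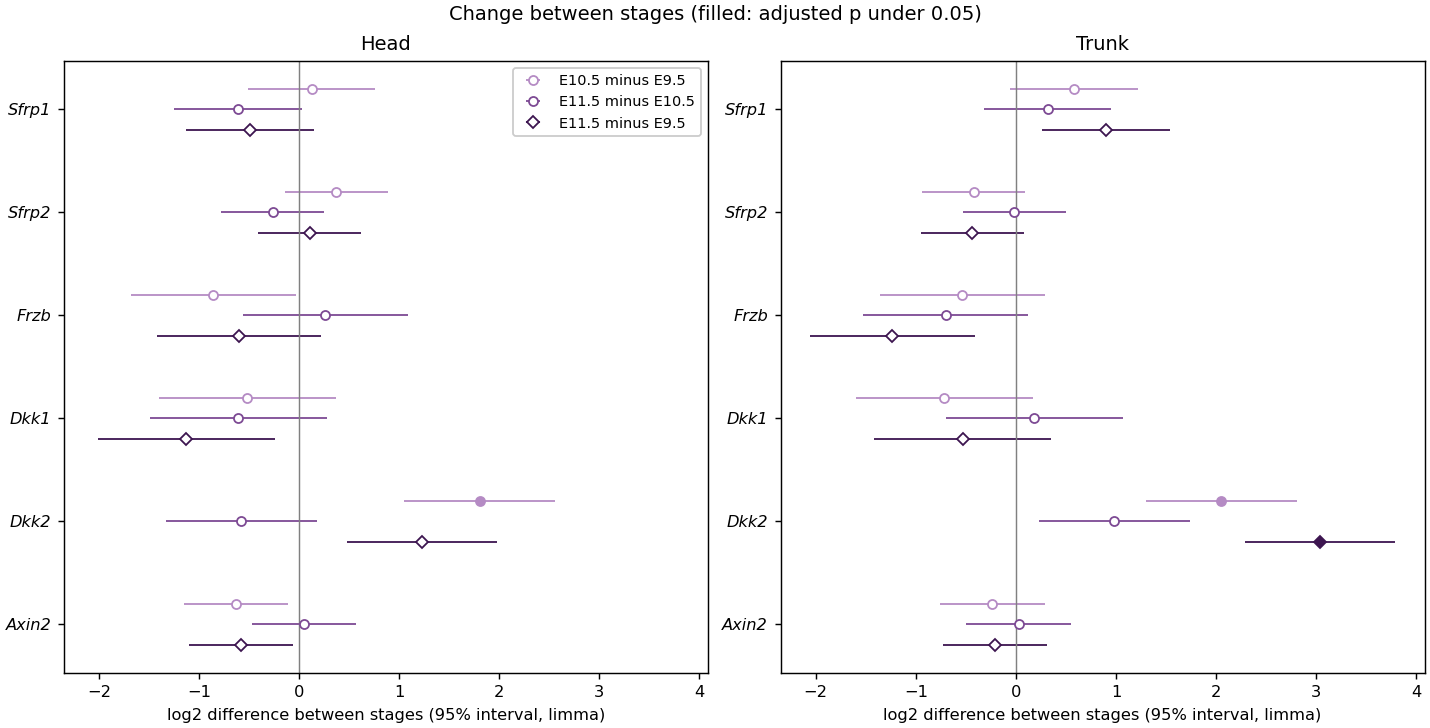
Log2 difference between stages for the 6 tested genes in head (left) and trunk (right), as limma estimates with 95% intervals; filled points have an adjusted p under 0.05. Dkk2 is filled at 1.80 in head from E9.5 to E10.5, and at 2.05 (E9.5 to E10.5) and 3.04 (E9.5 to E11.5) in trunk.

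Other genes of the pathway were read from a fixed list. Of 98 further Wnt genes listed, 89 had a probe set and 58 were tested. Over the mean of the 3 stages 3 were higher and 4 lower in head, 7 of 58 beside 10.5% of all genes, and their median was log2 0.005. By role, 1 of 2 tested agonists and agonist receptors and 2 of 7 tested other antagonists were higher in head. Of 9 tested ligands 2 were lower, as were 1 of 7 other antagonists and 1 of 13 cytoplasmic components. None of 9 receptors, 9 nuclear factors, 7 other targets or 2 ligand secretion genes passed in limma.

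The agonist Rspo2, a secreted R-spondin that strengthens Wnt signals through Lgr receptors, was at least 3.85-fold higher in head over the mean of the 3 stages (log2 2.42 ± 0.24, adjusted p = 5.58e-05). In head it had 656 and 801 units at E9.5, 1212 and 953 at E10.5, and 857 and 1216 at E11.5. In trunk it had 59.0 and 28.3 units at E9.5, 479 and 191 at E10.5, and 364 and 488 at E11.5. The regions did not overlap at any stage. It was at least 6.63-fold higher in head at E9.5 (adjusted p = 0.00011) and 3.56-fold higher at E10.5 (adjusted p = 0.0332, or 0.238 without trunk E10.5 replicate 2). In trunk it rose at least 3.86-fold from E9.5 to E11.5 (log2 3.37 ± 0.42, adjusted p = 0.00034).

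Of the other antagonists, Sostdc1, a secreted antagonist of Wnt and BMP signals, was 1.88-fold higher in head over the mean of the 3 stages (adjusted p = 0.0266, or 0.133 without both E10.5 replicate 1 arrays). The membrane glycoprotein gene Tpbg, a Wnt inhibitor in zebrafish, was 1.56-fold higher (adjusted p = 0.0107, or 0.0501 without both E10.5 replicate 1 arrays). Wif1, a secreted protein that binds Wnt ligands, was at least 1.70-fold lower in head. Wif1 had 41.8 and 52.3 units in head at E9.5, 20.6 and 94.5 at E10.5, and 167 and 96.5 at E11.5, against 82.5 and 124, 245 and 247, and 373 and 283 in trunk at the same stages.

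Nkd2, which binds Dishevelled, was at least 2.31-fold lower in head over the mean of the 3 stages, with all 6 head arrays (21.2 to 118 units) below all 6 trunk arrays (190 to 384 units). The ligand Wnt16 was at least 1.61-fold lower in head, with 25.4 to 65.6 units in head and 72.0 to 414 in trunk. The ligand Wnt7a had 36.7 to 57.0 units in head and 76.1 to 144 in trunk, with no fold above 1 against the array median. All 6 head arrays of Wnt16 and of Wnt7a, and all but 1 head array of Nkd2 and of Wif1, lay below the array median. These 4 genes came through the filter by their trunk arrays, where they are high, so their calls are given as descriptions, without the test's values, and the count of 4 lower genes is no support for a direction.

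**Figure D5:**
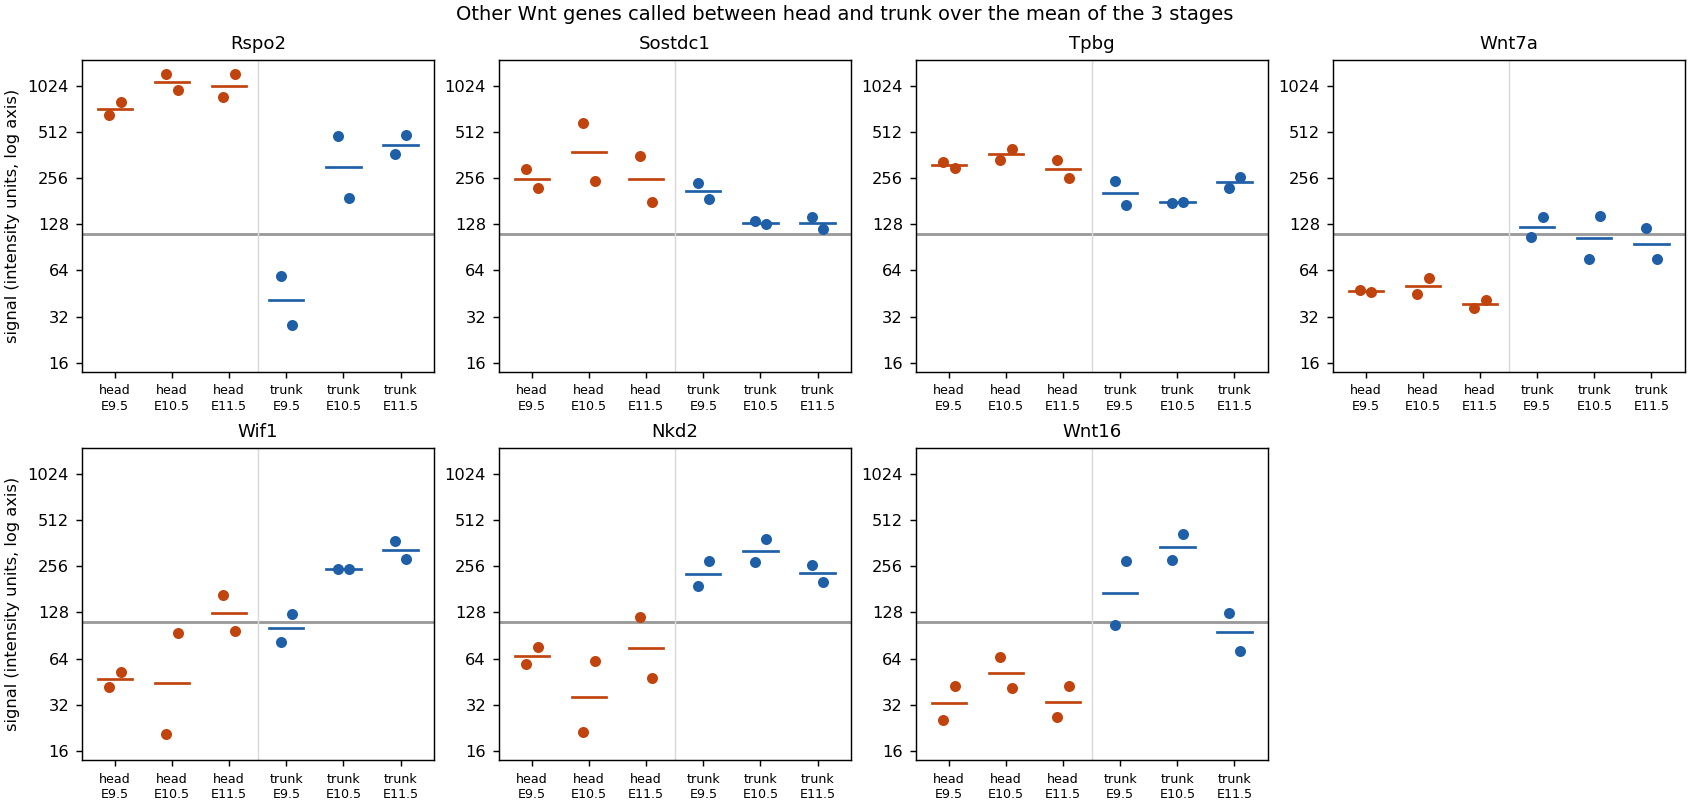
Signal on each of the 12 arrays (vertical, intensity units, log axis) of the 7 other Wnt genes that passed between head and trunk for the average of the stages, with head groups left of trunk groups. Points are arrays, bars are group means of log2 signal and the grey band is the range of array medians. Rspo2, Sostdc1 and Tpbg were higher in head; Wnt7a, Wif1, Nkd2 and Wnt16 were lower.

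At single stages, 2 of the 58 other Wnt genes were higher and 2 lower in head at E9.5 (5.92% of all genes passed), 2 higher and 3 lower at E10.5 (4.52% of all genes), and none passed at E11.5 in limma (14 at an unadjusted p under 0.05). At E9.5 Bmp4, a growth factor gene, was at least 3.32-fold higher (adjusted p = 0.0106, or 0.119 without trunk E9.5 replicate 1), and Myc, a growth regulator, was 2.29-fold lower (adjusted p = 0.024, or 0.166 without that array). Wnt16 was called lower at E9.5 and E10.5, and Nkd2 and Wif1 at E10.5, with the limit given above. None of these 3 calls at E10.5 held without both E10.5 replicate 1 arrays.

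Between stages, no other Wnt gene passed in head in limma (4, 8 and 11 at an unadjusted p under 0.05 for the first day, the second day and E9.5 to E11.5). In trunk 1 rose and 3 fell from E9.5 to E10.5, 4 of 58 beside 7.2% of all genes, and 8 rose and 4 fell from E9.5 to E11.5, 12 of 58 beside 13.4% of all genes. No difference between these counts, or those at single stages, and the shares over all genes was tested, and nothing is read from them about the list. Among the 8 that rose by E11.5, Tle2 had 126 and 130 units in trunk at E11.5. It lay below the array median on all other arrays. Tle2 thus came through the filter by the group where it is high, and its place in that count is no support for a direction. From E9.5 to E10.5 Rspo2 rose at least 2.76-fold (adjusted p = 0.00193, or 0.0540 with signals floored at the array median), and Myc, the Groucho co-repressor gene Tle3 and the receptor gene Fzd7 fell 2.95-fold, 1.57-fold and 1.78-fold. Without both E10.5 replicate 1 arrays the falls of Myc and Tle3 did not pass (adjusted p = 0.0873 and 0.182), and that of Fzd7 did not without trunk E9.5 replicate 1 (0.284). By E11.5 the R-spondin receptor gene Lgr5, itself a Wnt target, rose at least 2.21-fold (adjusted p = 0.00444), Bmp4 rose at least 3.06-fold (adjusted p = 0.00962, or 0.099 without trunk E9.5 replicate 1), and Myc fell 2.52-fold (adjusted p = 0.00796, or 0.0729 without trunk E11.5 replicate 1).

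The genes whose log2 signal followed each member most closely over the 12 arrays were found by Pearson correlation among the 7722 genes, as a description over arrays that share groups. For Dkk2 they were the pseudokinase gene Trib2 (r = 0.947), the copper transporter gene Atp7a (0.939) and Nrep (0.938). For Axin2 they were the DNA topoisomerase gene Top1 (0.924), the DNA ligase gene Lig1 (0.907) and Dxo (0.901). For Dkk1 they were the chromatin protein gene Dek (0.911), Lad1 (0.902) and the protease gene Klk8 (0.900). For Frzb they were the thioredoxin reductase gene Txnrd2 (0.909), the co-chaperone gene Bag2 (0.895) and the cullin gene Cul1 (0.893). For Sfrp1 they were Fam114a1 (0.868), the glycogen phosphorylase gene Pygb (0.861) and Pcmtd1 (0.851), and for Sfrp2 Zfp280c (0.957), Zfp326 (0.905) and the phosphatase gene Pgp (0.881). No member was among the 3 closest genes of another.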

How the data were processed

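The authors deposited linear signal intensity per probe set for 12 one-colour Affymetrix mouse arrays. Per the submitters' processing notes they come from MAS5 and Affymetrix Expression Console; no further normalization is named there. Array medians lay between 108.6 and 110.4, so the log2 of the deposited signal was taken with no further scaling.

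Among the 22690 probe sets were 64 controls, which were dropped, and 20380 that stood for 1 gene in the probe annotation (691 stood for several and 1555 for none). Testing required signal above the array's own median on 2 or more of 12 arrays. The probe set of highest mean stood for its gene, which left 7722 genes. Differences were fitted with limma 3.58.1 in R 4.3.3 (1 mean per group, two-sided, with an intensity trend and 5.87 prior beside 6 residual degrees of freedom) and adjusted by Benjamini-Hochberg over the genes tested, with a threshold of 0.05. The test was tried on simulated arrays with known changes and independent noise drawn from the fitted spread. Such arrays cannot show how calls depend on single arrays, and nothing is concluded from them. The number of arrays limits the precision, and nothing states that both arrays of a group are separate embryos or pools. The p-values therefore cover the spread between these arrays only, which may be technical. At E10.5 the 2 arrays of a region differed in Xist (163 and 5006 units in head, 82.6 and 4132 in trunk). Those arrays are thus unlikely to be repeats of 1 RNA sample, and the other groups showed no such gap. A fold is a bound ("at least") where an array of the dimmer side lay below its median and was raised to it.

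The genes, the lists and the tests were chosen with earlier results of these data known. Named genes are the listed members, the 3 genes most correlated with each, and called genes of a Wnt list by smallest p (up to 12 for the mean of the 3 stages, up to 4 elsewhere). Alternatives covered scaling, the filter, a floor, the choice of probe set, the variance model, the replicate number as a block and left-out arrays.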

Additional observations from a re-analysis of the deposited data

Results flagged for a closer look

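Of the 58 other Wnt genes tested, the 3 below passed the limma test of a regional difference in the E9.5 to E11.5 change. Over all genes 1.48% passed, and no difference from that share was tested. For Bmp4 the head minus trunk difference in the change was log2 −3.09 ± 0.52 (adjusted p = 0.0127). Its signal in head was 315 and 628 units at E9.5, 423 and 274 at E10.5, and 199 and 153 at E11.5, and in trunk it was 92.1 and 166, 301 and 238, and 368 and 458. It passed in 19 of 22 alternatives, with a highest adjusted p of 0.0569 without trunk E11.5 replicate 2.

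For Myc the difference was log2 2.21 ± 0.39 (adjusted p = 0.0159). Myc had 271 and 287 units in head at E9.5, 330 and 246 at E10.5, and 574 and 455 at E11.5, against 691 and 592, 214 and 219, and 188 and 341 in trunk. It passed in 18 of 21 alternatives, with a highest adjusted p of 0.0717 without trunk E9.5 replicate 1. For Rspo2 the difference was log2 −2.87 ± 0.60 (adjusted p = 0.0362), with the signals given above, and it passed in 9 of 22 alternatives. With signals floored at the array median its adjusted p was 0.264.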

How the results depend on the processing

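Over 22 alternatives (12 of them leaving out 1 array, where the lone array of a group is assumed to vary like the others), 1668 values of single members kept their side of the threshold, 15 lost it, 20 gained it, and 0 called values changed direction. Of the 6 tested genes, the number that passed between head and trunk for the average of the stages was 0, and was 1 after median centring (Dkk2), with a floor at the array median (Dkk2) and without both E10.5 replicate 1 arrays (Axin2), and 0 to 1 when single arrays were left out. With the floor it was also 1, not 0, for head E11.5 minus E9.5 and for head minus trunk in the E11.5 minus E9.5 change, Dkk2 each time, and both ranged from 0 to 1 without single arrays. For head E10.5 minus E9.5 it was 0, not 1, with no filter, with no intensity trend and without both E10.5 replicate 1 arrays, and 0 to 1 without single arrays. For trunk E10.5 minus E9.5 it was 0 without both E10.5 replicate 1 arrays and 0 to 1 without single arrays, and for head against trunk at E11.5 it was 0 to 1. For trunk E11.5 minus E9.5 it was 2, not 1, after median centring, with no intensity trend and without both E10.5 replicate 1 arrays, with Frzb beside Dkk2, and 1 to 2 without single arrays. The causes were not tested. Counts over all genes moved as well: with both E10.5 replicate 1 arrays left out, 446 genes passed in place of 808 for the average of the stages, 34 in place of 349 for head against trunk at E10.5, 0 in place of 74 and 95 in place of 556 for the first day in head and in trunk, 4 in place of 76 for the second day in head, and 0 in place of 30 for the regional difference in the first-day change. Without trunk E9.5 replicate 1 the counts were 238 in place of 457 for head against trunk at E9.5, 434 in place of 1038 for trunk E11.5 minus E9.5, and 57 in place of 114 for the regional difference in that change. They were 56 in place of 160 at E11.5 without trunk E11.5 replicate 1, 173 in place of 369 for head E11.5 minus E9.5 without head E9.5 replicate 1, 13 in place of 2 for the second day in trunk with the floor, and 17 in place of 0 for the regional difference in the second-day change without head E10.5 replicate 2. With the replicate number as a block, the counts of members called were as without it in all 13 comparisons (Dkk2 at E11.5, adjusted p = 0.0287). Deviations of same-numbered arrays correlated between −0.299 and 0.172 over 15 pairs of groups, of which 2 lay over 0.1, so the numbers were not taken to pair the arrays. At E10.5, however, Xist was low in replicate 1 of both regions (163 units in head and 82.6 in trunk). Whether same-numbered arrays of that stage share a source was not tested. Signal near or below the array median limits Dkk1, Frzb and Lef1.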
